A study of Mus musculus with 12 samples.

Results

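The genes described here are 10 early-response transcription factor genes: *Fos*, *Fosb*, *Fosl1* and *Fosl2* of the Fos family, *Jun*, *Junb* and *Jund* of the Jun family, and *Atf3*, *Egr1* and *Myc*. Their rows were taken by symbol from a list drawn up with earlier results of these data known, and they are 10 of the 55357 genes in the count table. All 10 passed the filter on low counts, which left 17358 genes to test, but *Fosl1* passed only through the groups in which it was counted, since it had no read in WT chow. Its test against WT chow is therefore no evidence, and counts of called genes in comparisons that use WT chow are given over the other 9.

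Poly-A RNA of liver was sequenced in 12 libraries from male C57BL/6J mice that were 7 weeks old at the start, received their diet for 6 weeks and were 13 weeks old at the end. All mice carried floxed *Ppara* alleles, including the controls. PPARa fl/fl AlbuminCre +/+ mice, called WT, gave 4 libraries on chow diet (WT chow) and 3 on CDAHFD (WT CDAHFD), a choline-deficient, amino acid-defined diet with a high fat content. PPARa fl/fl AlbuminCre Tg/+ mice, called KO, gave 2 libraries on chow diet (KO chow) and 3 on CDAHFD (KO CDAHFD). The albumin promoter drives Cre in hepatocytes, so the other cells of the liver keep their *Ppara*, and the transgene itself is present in KO mice only. Total counts ran from 29906785 to 43551003 per library. The labels number the libraries but do not say in so many words that each is a mouse of its own, and p-values measure the spread between these libraries. Levels are CPM, read counts relative to the library size, with library sizes scaled by TMM, and errors of group means are SDs. Fold changes are log2 values with their standard error (SE), from edgeR's quasi-likelihood test over all 12 libraries with Benjamini-Hochberg adjustment over the 17358 genes, and a gene is said to be higher, lower, risen or fallen where the adjusted p is under 0.05. *Ppara*, the gene deleted in hepatocytes, stood between 96.2 and 238 CPM in WT chow, 59.5 and 75.5 CPM in WT CDAHFD, 14.4 and 38.7 CPM in KO chow, and 20.7 and 51.9 CPM in KO CDAHFD, so that each KO library lay below each WT library.

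AP-1 is a dimer of basic leucine zipper proteins. Jun proteins pair with each other or with Fos proteins, Fos proteins need a Jun partner, and some members of the ATF family, such as ATF3, can pair with Jun proteins. The genes of *Fos*, *Jun*, *Atf3*, *Egr1* and *Myc* are known as immediate-early or early-response genes: growth factors, cytokines and cell stress switch them on, largely through MAP kinases, without new protein synthesis, and their mRNAs are short-lived. In the liver they are known from partial hepatectomy, acute injury and inflammation, and both hepatocytes and other liver cells can express them.

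The 250 bases before the start site are shown for *Fos*, *Jun* and *Atf3*, since these genes rose in both comparisons with WT chow and are known to be controlled by proteins of the AP-1 and ATF/CREB families at elements next to their start. They are RefSeq promoters on GRCm38.p6, written 5′ to 3′ on the strand of the gene, and the capitals mark the motif matches described after them. The RefSeq start of *Atf3* lies inside the GENCODE gene, downstream of its outermost annotated start.
Fos, chr12:85473640-85473889, plus strand: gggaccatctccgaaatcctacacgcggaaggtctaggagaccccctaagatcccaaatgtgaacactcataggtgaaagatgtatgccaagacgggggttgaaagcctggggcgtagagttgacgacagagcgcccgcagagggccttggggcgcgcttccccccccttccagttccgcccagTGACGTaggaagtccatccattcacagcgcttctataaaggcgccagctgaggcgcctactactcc
Jun, chr4:95052223-95052472, minus strand: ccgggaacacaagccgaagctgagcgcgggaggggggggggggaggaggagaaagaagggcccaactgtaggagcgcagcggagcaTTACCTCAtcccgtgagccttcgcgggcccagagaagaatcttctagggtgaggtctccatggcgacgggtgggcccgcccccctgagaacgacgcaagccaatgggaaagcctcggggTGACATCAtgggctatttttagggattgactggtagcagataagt
Atf3, chr1:191183334-191183583, minus strand: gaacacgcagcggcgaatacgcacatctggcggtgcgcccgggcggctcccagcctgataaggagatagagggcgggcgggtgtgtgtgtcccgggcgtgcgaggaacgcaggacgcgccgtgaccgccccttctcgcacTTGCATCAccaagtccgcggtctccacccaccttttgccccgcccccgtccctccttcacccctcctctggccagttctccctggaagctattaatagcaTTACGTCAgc
The motifs were chosen after these promoters had been seen, and were searched on both strands of the window from 250 bases before to 50 bases after the start. In *Fos*, the CRE core TGACGT began 66 bases before the start. In *Jun*, the AP-1-like elements TTACCTCA and TGACATCA began 164 and 45 bases before the start. In *Atf3*, the CRE-like element TTACGTCA began 10 bases before the start, overlapping a TGACGT on the other strand. TGATGCAA lay on the strand opposite to the gene, shown as TTGCATCA, which began 110 bases before the start. *Fosb* held TGACGCAA 60 bases before its start. Among 32851 promoters of the same length, TGACGT was found in 7.51%, TGACATCA in 3.62%, TTACCTCA in 0.889%, TTACGTCA in 0.499%, TGATGCAA in 0.895% and TGACGCAA in 0.490%. The AP-1 site TGACTCA (5.20% of all promoters), the full CRE TGACGTCA (1.79%) and the CArG box (1.63%) had no match in the 7 of the 10 genes with an entry, which says only that these letters are not in this window.

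On the GRCm38 build with GENCODE M21, *Fos* (ENSMUSG00000021250) lies on the plus strand at chr12:85473890-85477273, *Fosb* (ENSMUSG00000003545) on the minus strand at chr7:19302696-19310051, *Fosl1* (ENSMUSG00000024912) on the plus strand at chr19:5447547-5455946 and *Fosl2* (ENSMUSG00000029135) on the plus strand at chr5:32135801-32157842. *Jun* (ENSMUSG00000052684) is a gene of 1 exon on the minus strand at chr4:95049034-95052222, *Junb* (ENSMUSG00000052837) lies on the minus strand at chr8:84974484-84978718, and *Jund* (ENSMUSG00000071076) is a gene of 1 exon on the plus strand at chr8:70698949-70700616. *Atf3* (ENSMUSG00000026628) lies on the minus strand at chr1:191170296-191218039, *Egr1* (ENSMUSG00000038418) on the plus strand at chr18:34859823-34864984 and *Myc* (ENSMUSG00000022346) on the plus strand at chr15:61985391-61990374. The libraries do not keep strand, which matters where genes overlap on opposite strands. *Fosl1* shares 1163 of its 2033 exon bases with *Ccdc85b*, which had 6971 counts over the 12 libraries against 61 of *Fosl1*, and *Junb* shares 173 of 2301 exon bases with *Prdx2*, which had 61395 counts against 24666 of *Junb*. Reads in the shared bases cannot be assigned. *Jun* shares 232 bases with its antisense gene *Junos*, whose 424 counts are 1.12% of those of *Jun*, and *Jund* overlaps *Gm11175*, which had 0 counts.

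*Atf3* encodes a stress-induced factor of the ATF/CREB family that can act as a repressor. It stood at 2.41, 0.567, 2.03 and 1.70 CPM in the 4 libraries of WT chow, 65.6, 68.5 and 52.7 CPM in WT CDAHFD, 49.2 and 40.8 CPM in KO chow, and 65.6, 68.1 and 40.5 CPM in KO CDAHFD. The 4 WT chow libraries were low and the other 8 were far above them with no overlap, while the ranges of WT CDAHFD and KO CDAHFD overlapped. *Myc*, a factor of growth and ribosome production that binds DNA with MAX, was at 2.52, 1.64, 2.83 and 1.24 CPM in WT chow, 31.5, 24.0 and 33.0 CPM in WT CDAHFD, 29.7 and 26.6 CPM in KO chow, and 22.0, 21.9 and 12.8 CPM in KO CDAHFD. WT chow was again apart from all others, KO chow lay within the range of WT CDAHFD, and the KO CDAHFD libraries lay below both of these groups.

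*Fos*, the founding Fos gene, was at 1.90, 0.787, 0.934 and 1.10 CPM in WT chow, 13.3, 22.8 and 10.8 CPM in WT CDAHFD, 11.4 and 4.51 CPM in KO chow, and 8.75, 9.57 and 7.35 CPM in KO CDAHFD. The KO chow libraries differed from each other by more than the KO CDAHFD libraries did, and all 3 KO CDAHFD libraries were below the lowest WT CDAHFD library. *Fosl2* encodes Fra-2, a Fos protein without the strong activation domain of FOS. It stood at 20.8, 7.87, 11.7 and 12.3 CPM in WT chow, 36.2, 38.9 and 33.0 CPM in WT CDAHFD, 24.4 and 25.2 CPM in KO chow, and 28.7, 23.5 and 26.1 CPM in KO CDAHFD. Both KO groups lay between the WT groups without overlapping either. *Fosb* was at 0.582, 0.315, 0.133 and 1.10 CPM in WT chow, 1.78, 2.78 and 1.25 CPM in WT CDAHFD, 1.03 and 0.606 CPM in KO chow, and 0.655, 0.962 and 0.500 CPM in KO CDAHFD. Here only WT CDAHFD was apart, and all KO libraries fell inside the range of WT chow. *Fosl1*, which encodes Fra-1, was counted 0 times in each WT chow library, 8, 19 and 6 times in WT CDAHFD, 4 and 13 times in KO chow, and 7, 2 and 2 times in KO CDAHFD. Each of these zeros leaves room for at most 3 counts, a bound that covers counting error only, so *Fosl1* was barely detectable at this depth.

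*Jun*, whose protein is the most active of the Jun partners, was at 27.8, 11.6, 36.5 and 18.9 CPM in WT chow, 124, 110.4 and 124 CPM in WT CDAHFD, 77.5 and 66.6 CPM in KO chow, and 112, 108 and 84.4 CPM in KO CDAHFD. The highest WT chow library was below the lowest of all others, and the KO chow libraries were below those of both CDAHFD groups. *Junb* stood at 34.0, 22.1, 51.0 and 30.1 CPM in WT chow, 72.9, 69.6 and 54.0 CPM in WT CDAHFD, 55.0 and 48.7 CPM in KO chow, and 65.4, 57.4 and 57.5 CPM in KO CDAHFD. WT chow 3 was high and overlapped KO chow. *Jund*, whose mRNA is present in most resting cells, was at 52.4, 39.8, 52.8 and 45.3 CPM in WT chow, 86.9, 69.8 and 75.2 CPM in WT CDAHFD, 90.8 and 57.9 CPM in KO chow, and 89.2, 94.0 and 46.2 CPM in KO CDAHFD. KO CDAHFD 3 fell inside the range of WT chow. *Egr1*, a zinc finger factor of the immediate-early class, stood at 21.4, 14.5, 14.0 and 16.9 CPM in WT chow, 73.7, 79.2 and 54.2 CPM in WT CDAHFD, 66.2 and 40.7 CPM in KO chow, and 52.0, 54.6 and 34.4 CPM in KO CDAHFD. WT chow lay below all other libraries, which overlapped each other.

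**Figure D1:**
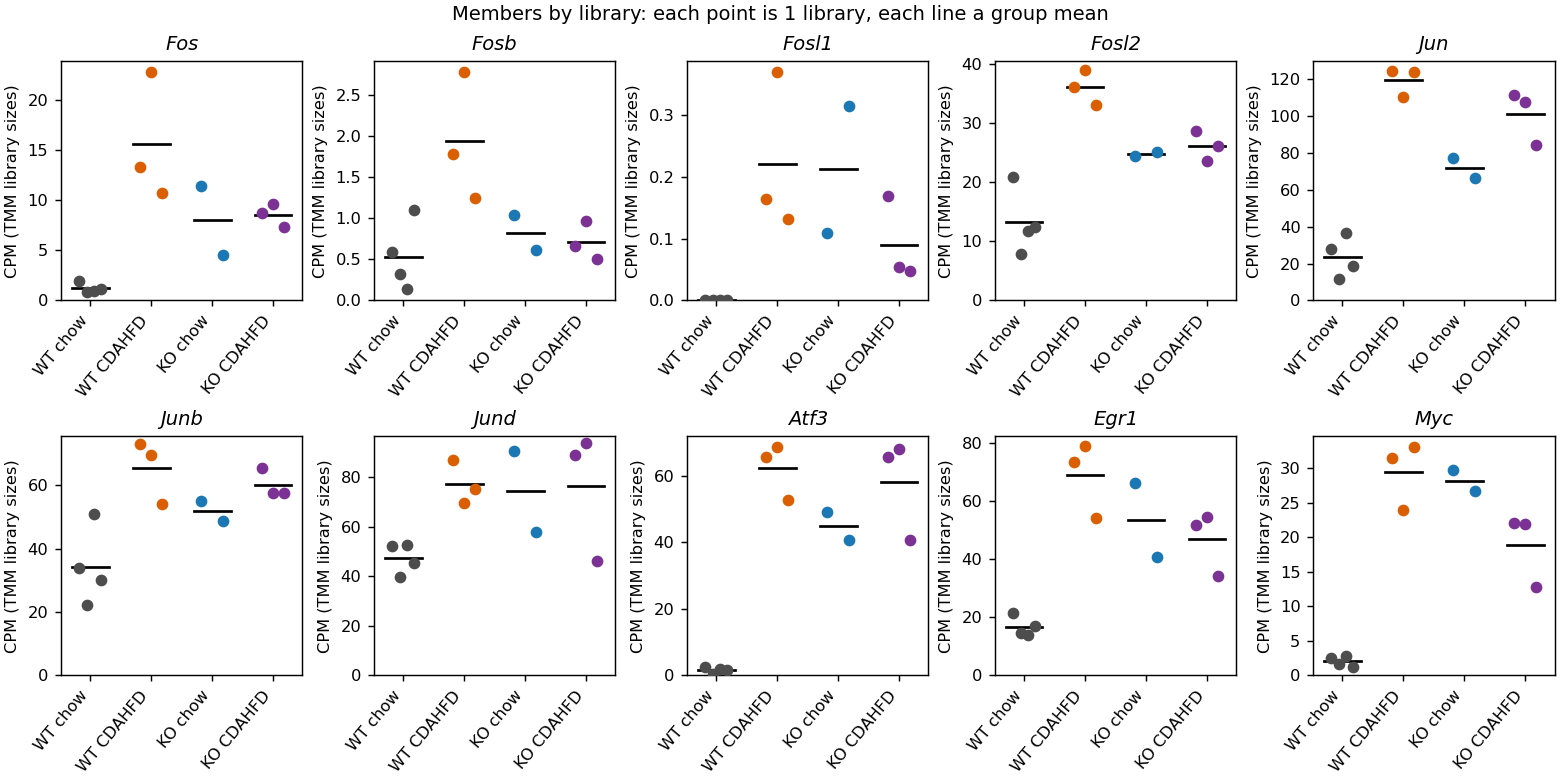
Level of each of the 10 genes in CPM (vertical axes, linear, each from 0) in the 12 libraries, by group. Points are libraries and lines are group means. The 4 WT chow libraries of *Atf3* sit between 0.567 and 2.41 CPM and the other 8 between 40.5 and 68.5 CPM, while for *Jund* KO CDAHFD 3, at 46.2 CPM, falls among the WT chow libraries.

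KO chow was compared with WT chow to ask what the loss of *Ppara* in hepatocytes does without the diet. *Atf3*, *Myc*, *Fos*, *Egr1*, *Jun* and *Fosl2* were higher in KO chow and none of the 9 genes was lower. These 6 of 9 compare with 22.0% of all genes tested that were higher in this comparison and 17.0% that were lower (39.0% in either direction, of which 56.4% were higher, or 86.0% by library size only), and the median log2 fold change of the 9 genes was 1.60 against 0.00 over all genes. The KO chow libraries all lay above those of WT chow for 7 of the 9, against 27.2% of all genes. *Atf3* rose from 1.68 ± 0.795 CPM (SD, n = 4) to 45.0 ± 5.94 CPM (SD, n = 2), by 4.76 on the log2 scale (SE 0.34, adjusted p = 6.93e-07, edgeR). *Myc* rose from 2.06 ± 0.746 to 28.2 ± 2.19 CPM, by 3.76 (SE 0.28, adjusted p = 8.61e-07, edgeR). *Fos* rose by 2.76 (SE 0.40, adjusted p = 1.70e-04, edgeR), to 7.97 ± 4.89 CPM, and by 1.96 without KO chow 1. The rises of *Egr1*, by 1.68 (SE 0.24), and of *Jun*, by 1.60 (SE 0.30), were smaller.

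*Fosl2* was higher in KO chow by 0.91 (SE 0.26, adjusted p = 0.0139, edgeR), but with either KO chow library left out the adjusted p was 0.0616 or 0.0641, and 0.0592 with only the libraries of these 2 groups in the fit. *Fosl1* averaged 0.212 CPM in KO chow, where 3 counts per library, which the zeros of WT chow allow, would be 0.112 CPM. KO chow 1, at 0.109 CPM, was not above that, and no fold change is given. *Junb*, at 0.60 (SE 0.24), and *Jund*, at 0.64 (SE 0.25), did not pass edgeR's test, with adjusted p of 0.0672 for the former and 0.0574 for the latter. They passed in 5 and 8 of 20 alternative fits. *Fosb* had 0.67 (SE 0.60, adjusted p = 0.405, edgeR) and passed in none.

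WT CDAHFD was compared with WT chow to ask what the diet does in mice whose *Ppara* alleles are not deleted. *Ppara* itself was lower in WT CDAHFD, by −1.29 (SE 0.40, adjusted p = 0.0163, edgeR). All 9 genes were higher, against 26.1% of all genes tested, while 25.0% of all genes were lower (51.1% were called in either direction, of which 51.0% were higher, or 88.6% by library size only), with a median log2 fold change of 2.05 against −0.05 over all genes. The libraries of the 2 groups were apart for all 9, against 28.0% of all genes whose WT CDAHFD libraries all lay above. Leaving *Fosl1* aside, the order of the sizes was led by *Atf3*, which reached 62.3 ± 8.38 CPM (SD, n = 3), by 5.23 (SE 0.33, adjusted p = 1.16e-07, edgeR). *Myc* rose by 3.83 (SE 0.27) and *Fos* by 3.73 (SE 0.38). *Jun* rose by 2.34 (SE 0.28), *Egr1* by 2.05 (SE 0.22) and *Fosb* by 1.92 (SE 0.51, adjusted p = 0.00744, edgeR), or by 2.53 without WT chow 4. *Fosl2* followed with 1.46 (SE 0.23), *Junb* with 0.93 (SE 0.21) and *Jund* with 0.70 (SE 0.22, adjusted p = 0.0190, edgeR), and the call of *Jund* was lost without WT CDAHFD 1, at an adjusted p of 0.0740. *Fosl1* averaged 0.221 CPM, beside the 0.112 CPM that the zeros of WT chow allow, and no fold change is given. *Ccdc85b*, which overlaps *Fosl1*, was higher in WT CDAHFD as well, by 0.76 (SE 0.15), but had a log2 fold change of −0.01 (SE 0.18) in KO chow. *Prdx2*, which overlaps *Junb*, was lower in WT CDAHFD, by −0.30 (SE 0.11), and had 0.08 (SE 0.12) in KO chow.

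Both comparisons use the same 4 WT chow libraries, so their values are set side by side without a measure of likeness. *Myc* had nearly the same log2 fold change in KO chow and in WT CDAHFD, 3.76 and 3.83. *Fos*, *Jun*, *Fosb*, *Fosl2*, *Atf3*, *Egr1*, *Junb* and *Jund* also had the smaller value in KO chow. The direct comparison of KO chow with WT CDAHFD, in which WT chow enters only the filter, the scaling and the estimate of the spread, had a negative log2 fold change for all 10 genes, from −1.24 (SE 0.60) for *Fosb*, −0.97 (SE 0.41) for *Fos* and −0.73 (SE 0.34) for *Jun* to −0.07 (SE 0.28) for *Myc*, −0.06 (SE 0.27) for *Jund* and −0.05 (SE 0.72) for *Fosl1*. None of the 10 passed edgeR's test, against 6.12% of all genes, and DESeq2 called 0. An unadjusted p under 0.05 was found for 2 of the 10 (*Fos* and *Jun*) and for 4168 of all 17358 genes. With only the libraries of these 2 groups in the fit, *Jun* (adjusted p = 0.00929, edgeR) and *Fosl2* (adjusted p = 0.0243, edgeR) were lower in KO chow. That fit called 1985 of the 16788 genes it tested. Libraries did not overlap, with KO chow lower, for 4 of the 10, *Fosb*, *Fosl2*, *Jun* and *Atf3*, against 24.1% of all genes.

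KO CDAHFD was compared with KO chow for the effect of the diet without hepatocyte *Ppara*. None of the 10 genes was called by edgeR, against 6.19% of all genes, and DESeq2 called 0. None had an unadjusted p under 0.05, against 4002 of all 17358 genes. The median log2 fold change of the 10 was 0.06, and 4 of the 10 were negative. *Jun* had the highest value, 0.49 (SE 0.33), with all 3 KO CDAHFD libraries above both KO chow libraries, as for *Junb*, at 0.21 (SE 0.26); such libraries were found for 19.9% of all genes. *Myc* had −0.57 (SE 0.28), with all 3 below, as for 19.2% of all genes. *Atf3* had 0.37 (SE 0.33), against its 5.23 for the same diet in WT mice.

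KO CDAHFD was compared with WT CDAHFD for the effect of the genotype on the diet. By edgeR 0 of the 10 genes were called, against 0.357% of all genes, and DESeq2 called 0. An unadjusted p under 0.05 was found for 4 of the 10 (*Fos*, *Fosb*, *Egr1* and *Myc*) and for 1523 of all 17358 genes. All 10 log2 fold changes were negative, with a median of −0.51 against 0.01 over all genes. *Fosb* had −1.46 (SE 0.53), *Fos* −0.87 (SE 0.36), *Myc* −0.64 (SE 0.25) and *Egr1* −0.56 (SE 0.23), while *Atf3* had −0.10 (SE 0.30) and *Jund* −0.02 (SE 0.24). The sign of *Jund* turned under 3 other fits and without WT CDAHFD 1 or KO CDAHFD 3, and that of *Atf3* turned without KO CDAHFD 3. For *Fos*, *Fosb*, *Fosl2* and *Myc* all KO CDAHFD libraries lay below all WT CDAHFD libraries, against 11.3% of all genes.

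The difference between the diet's log2 fold change in KO and in WT mice was tested as an interaction. It was negative for all 9 genes and passed for 6, *Atf3*, *Myc*, *Fos*, *Egr1*, *Jun* and *Fosl2*, against 14.5% of all genes that passed with a negative value (23.1% in either direction). The interaction was −4.86 (SE 0.46, adjusted p = 1.51e-05, edgeR) for *Atf3*, −4.40 (SE 0.38, adjusted p = 8.95e-06, edgeR) for *Myc* and −3.63 (SE 0.55, adjusted p = 4.27e-04, edgeR) for *Fos*, which had −2.82 without KO chow 1. *Egr1* had −2.24 (SE 0.33), *Jun* −1.84 (SE 0.43) and *Fosl2* −1.38 (SE 0.36). *Fosb*, at −2.13 (SE 0.79, adjusted p = 0.0721, edgeR), *Junb*, at −0.72 (SE 0.33, adjusted p = 0.146, edgeR), and *Jund*, at −0.66 (SE 0.35, adjusted p = 0.200, edgeR), did not pass. They passed in 5, 3 and 1 of 19 alternative fits. An interaction of this sign means that the log2 levels of KO CDAHFD were below the sum of the separate changes with genotype and with diet.

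**Figure D2:**
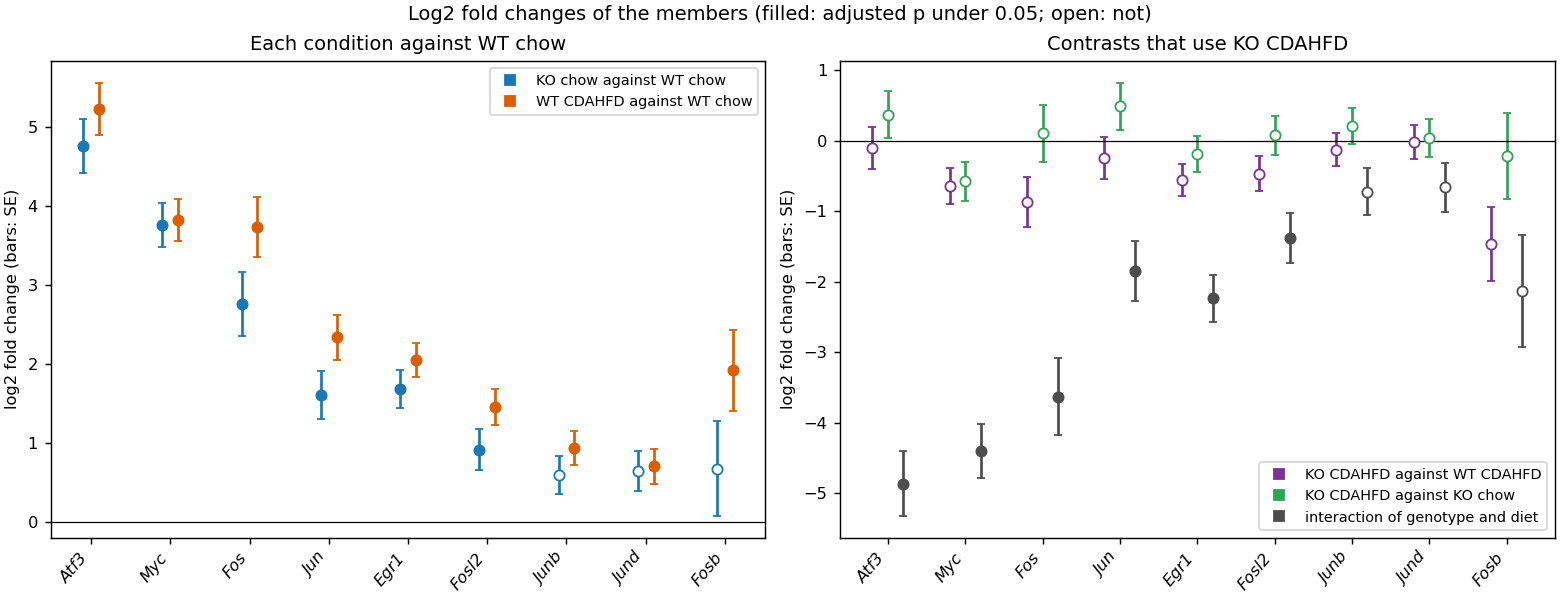
Log2 fold changes (vertical axes) of 9 of the 10 genes, with bars of 1 SE; filled points have an adjusted p under 0.05. *Fosl1* is left out, since its fitted value depends on the prior count. On the left, all WT CDAHFD values are filled and *Junb*, *Jund* and *Fosb* are open for KO chow; on the right, all comparisons of KO CDAHFD with another group are open and the interaction is filled for *Atf3*, *Myc*, *Fos*, *Jun*, *Egr1* and *Fosl2*.

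Levels of different genes were compared per kilobase of exon. In WT chow *Jund* was first with 28.5 ± 3.73 CPM per kb (SD, n = 4), then *Junb* with 14.9 ± 5.28 and *Jun* with 7.43 ± 3.38, then *Egr1* with 3.72 ± 0.752 and *Fosl2* with 1.36 ± 0.564. *Atf3*, *Myc* and *Fos*, with 0.778 ± 0.369, 0.758 ± 0.274 and 0.502 ± 0.212 CPM per kb, lay within their spread of each other. In WT CDAHFD *Jund*, at 46.3 ± 5.22 CPM per kb (SD, n = 3), was followed by *Jun* at 37.5 ± 2.51 and by *Atf3* at 28.9 ± 3.89 and *Junb* at 28.5 ± 4.40, which did not differ beyond their spread. *Atf3* thus stood at place 6 of the 10 in WT chow and at place 3 in WT CDAHFD. In KO chow it was at place 4, with 20.9 ± 2.76 CPM per kb (SD, n = 2), within the spread of *Jun* and *Junb* at 22.6 ± 2.40 and 22.5 ± 1.92. In KO CDAHFD it was at place 3, with 27.0 ± 7.07 CPM per kb (SD, n = 3). *Egr1*, *Myc*, *Fos*, *Fosl2*, *Fosb* and *Fosl1* followed in this order in these 3 groups.

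The make-up of the families does not depend on how libraries are scaled, since it is a share of counts per exon length within a library. *Jun* was 15.9, 9.81, 17.5 and 12.8% of the Jun family in the libraries of WT chow and 31.8, 32.4 and 36.2% in those of WT CDAHFD. Its share was 23.7 and 27.2% in KO chow and 29.97, 29.3 and 33.4% in KO CDAHFD, so that all libraries outside WT chow held a larger share of *Jun* than any WT chow library. The share of *Jund* was 57.2 ± 6.54% (SD, n = 4) in WT chow and 41.2 ± 1.73% in WT CDAHFD (SD, n = 3), and that of *Junb* was 28.8 ± 3.59% and 25.3 ± 3.29%. In the Fos family, *Fosl2* was the largest part in WT chow, at 69.7 ± 3.43%, and *Fos* was 25.8 ± 1.72%, between 24.4 and 27.9% in the 4 libraries. *Fos* was 57.9, 67.5 and 55.4% in WT CDAHFD, 64.0 and 40.2% in KO chow, and 54.1, 60.9 and 52.7% in KO CDAHFD, in each library above WT chow. In KO chow 2 *Fosl2* was the larger part. Summed over its members, the Fos family held 1.95 ± 0.793 CPM per kb on chow and 10.8 ± 3.17 on CDAHFD in WT mice, and 6.18 ± 1.995 and 6.49 ± 0.499 in KO mice. The Jun family held 50.8 ± 12.02 and 112 ± 9.02 CPM per kb in WT mice, and 89.7 ± 18.3 and 104 ± 21.3 in KO mice, in the same order. These shares and sums are descriptions without a test.

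**Figure D3:**
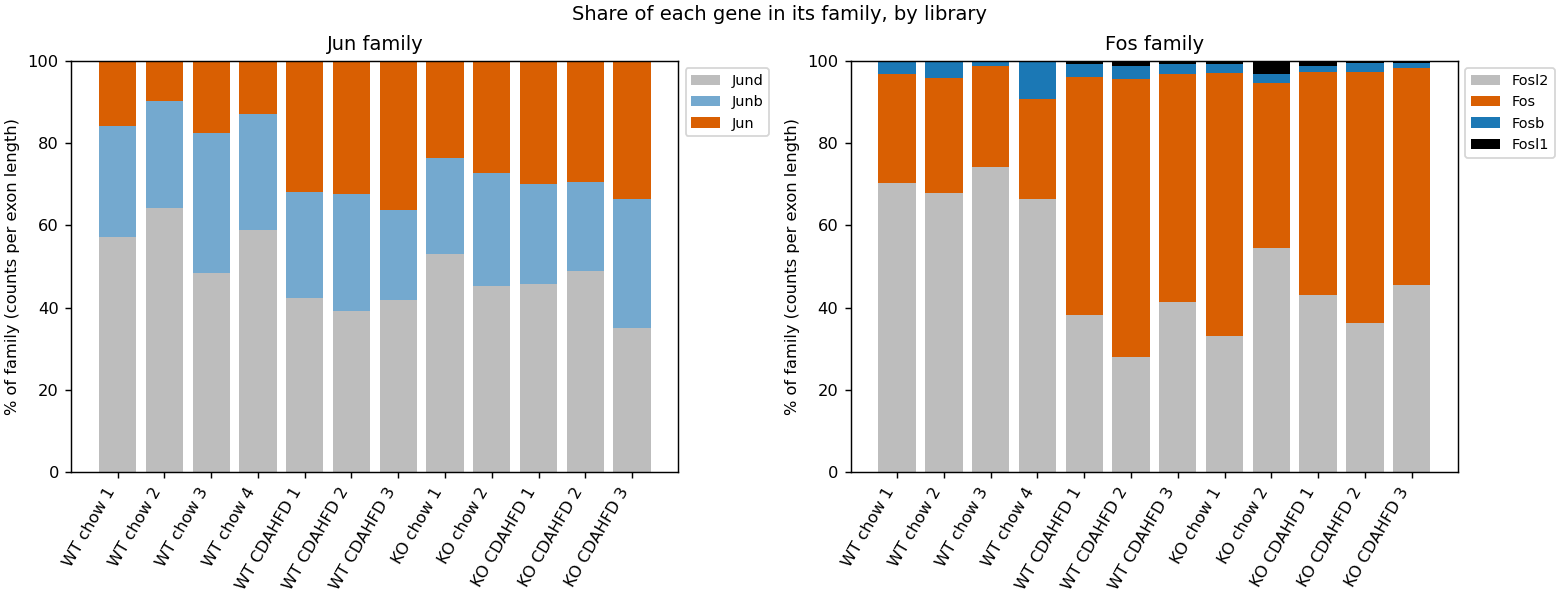
Share of each gene in the Jun family (left) and the Fos family (right), in % of counts per exon length, with 1 bar per library. *Jun* holds 9.81 to 17.5% in the WT chow libraries and 23.7 to 36.2% in the others, and *Fos* 24.4 to 27.9% against 40.2 to 67.5%.

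Other genes of the pathway were taken from lists written with earlier results of these data known. Among 19 other immediate-early genes, 11 were higher and 0 lower in KO chow, and 13 were higher and 0 lower in WT CDAHFD. Over all genes tested 22.0% were higher and 17.0% lower in KO chow, and 26.1% and 25.0% in WT CDAHFD. *Egr2*, a zinc finger factor related to *Egr1*, rose by 4.89 (SE 0.24) in KO chow and 6.10 (SE 0.23) in WT CDAHFD, *Nr4a3*, an orphan nuclear receptor, by 3.60 (SE 0.43) and 3.77 (SE 0.40), and *Egr3* by 3.46 (SE 0.43) and 3.68 (SE 0.40). *Ier2*, *Dusp1* and *Zfp36*, picked after their values were seen as well expressed genes of the list that were not called, had log2 fold changes of −0.44 (SE 0.26), −0.35 (SE 0.30) and −0.07 (SE 0.26) in KO chow, and −0.11 (SE 0.23), 0.07 (SE 0.26) and 0.04 (SE 0.23) in WT CDAHFD. All 3 stood at a mean above 20 CPM in each group. Of the 19 genes, 11 had a negative interaction that passed, against 14.5% of all genes. Only *Egr2* was called in KO CDAHFD against KO chow, where it was higher, and 6.19% of all genes were called there.

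Among 13 genes of the MAP kinase cascade, which passes signals to these factors, 1 was higher and 5 were lower in KO chow, and 1 was higher and 9 were lower in WT CDAHFD. Of all genes 17.0% and 25.0% were lower, and 22.0% and 26.1% were higher. The gene that rose in both was *Mapk3*, which encodes ERK1, by 0.70 (SE 0.10) and 0.998 (SE 0.09). *Mapk14*, which encodes p38α, was lower in KO chow, by −0.41 (SE 0.11), as was *Map2k2*, a kinase of ERK, by −0.38 (SE 0.12), and *Map3k7* was lower in WT CDAHFD, by −0.47 (SE 0.11). These are mRNA levels, and kinase activity was not measured. Of 10 MAP kinase phosphatases, which switch the cascade off and are themselves induced by it, 5 were higher and 0 lower in KO chow, and 7 were higher and 0 lower in WT CDAHFD, led by *Dusp5*, at 2.51 (SE 0.26) and 2.86 (SE 0.24), and *Dusp2*, at 2.28 (SE 0.34) and 2.29 (SE 0.31). Of 6 genes for SRF and its cofactors, which bind the CArG box, 1 was lower in KO chow, *Elk4*, by −0.38 (SE 0.13), and in WT CDAHFD 1 was lower and 2 were higher, *Mrtfb* by 0.94 (SE 0.18) and *Mrtfa* by 0.74 (SE 0.19).

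Of 12 other genes whose proteins can pair with Fos or Jun proteins or bind related sites, 3 were higher in KO chow, a share near the 22.0% of all genes, and 6 in WT CDAHFD, against 26.1%, and 0 were lower in either. *Mafk*, a small Maf protein, rose by 1.08 (SE 0.16) and 1.39 (SE 0.15), and *Jdp2*, a repressor of AP-1, by 0.78 (SE 0.27) and 1.10 (SE 0.24). Of 11 genes known as AP-1 targets 10 could be tested, and 9 of these were higher and 0 lower in both comparisons, with medians of 3.10 in KO chow and 3.36 in WT CDAHFD. *Timp1*, an inhibitor of matrix metalloproteinases, rose by 6.30 (SE 0.42) and 6.51 (SE 0.40), *Mmp13*, a collagenase, by 5.95 (SE 0.50) and 5.91 (SE 0.48), and *Ccnd1*, a cyclin of the G1 phase, by 3.85 (SE 0.43) in KO chow. *Plaur*, the receptor of urokinase, rose by 4.78 (SE 0.24) in WT CDAHFD. *Mmp3* was the gene tested but not called, and *Il6* did not pass the filter. Of the 10, 9 had a negative interaction that passed, against 14.5% of all genes.

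Of 10 genes of the *Myc* dimer network 1 was higher and 2 were lower in KO chow, and 2 were higher and 2 lower in WT CDAHFD. These counts were not above the shares of all genes, 22.0% higher and 17.0% lower in KO chow, and 26.1% and 25.0% in WT CDAHFD, by more than 1 gene. *Mxd3*, which pairs with MAX, rose by 3.56 (SE 0.61) and 3.42 (SE 0.57), and *Mycn* was lower in KO chow, by −1.52 (SE 0.54). Of 11 genes known as *Myc* targets in ribosome production, metabolism and the cell cycle, 5 were higher and 0 lower in KO chow, among them *Nop56* by 0.79 (SE 0.12), *Npm1* by 0.57 (SE 0.14) and *Ddx21* by 0.52 (SE 0.14), which act in the nucleolus. In WT CDAHFD 0 of the 11 were called by edgeR in either direction, against 51.1% of all genes, and DESeq2 called 1, although *Myc* itself rose by 3.83 there. An unadjusted p under 0.05 was found for 2 of the 11 and for 9829 of all 17358 genes. In the direct comparison 3 of the 11 were higher in KO chow than in WT CDAHFD, against 2.71% of all genes, and *Myc* had −0.07 (SE 0.28). In KO CDAHFD against KO chow, 3 of the 11 were lower and 0 higher, against 2.44% and 3.76% of all genes.

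**Figure D4:**
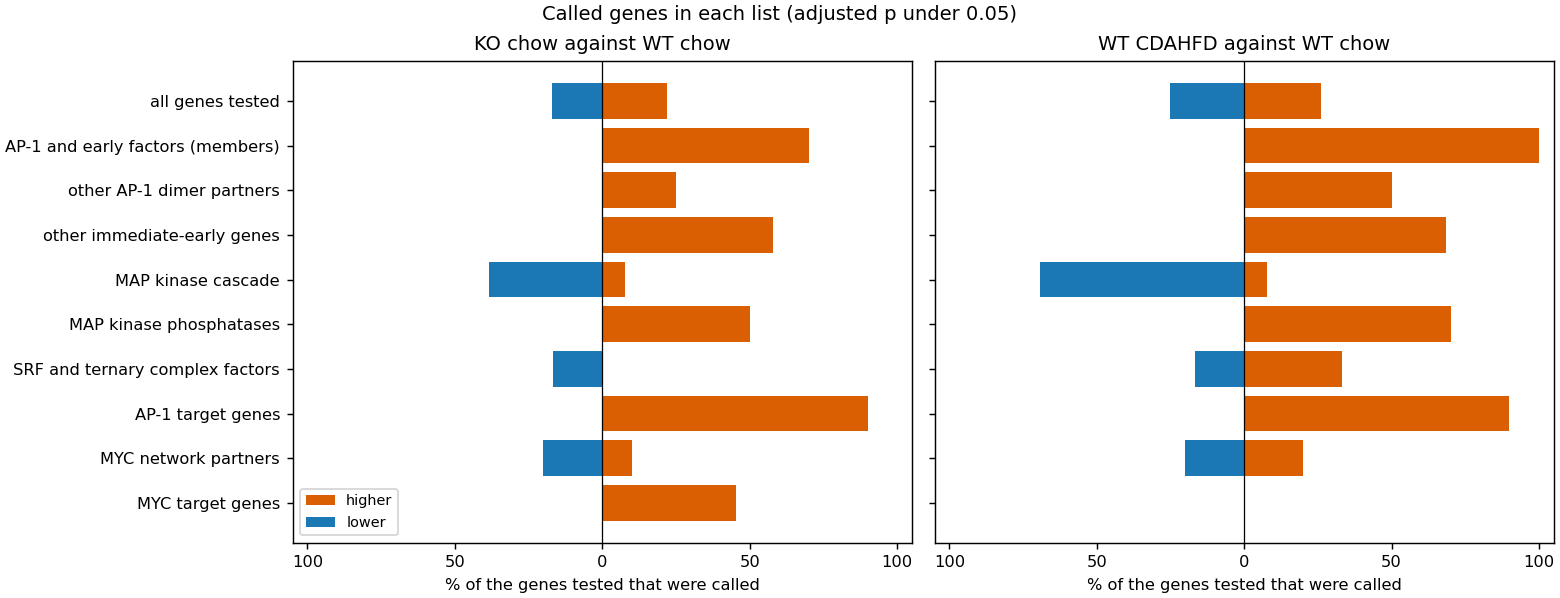
Percent of the tested genes of each list that were called higher (to the right of 0) or lower (to the left of 0) in KO chow and in WT CDAHFD, each against WT chow. The bar of the 10 genes includes *Fosl1*. Of AP-1 target genes 9 of 10 were higher in both, 5 and 9 of 13 genes of the MAP kinase cascade were lower, and 0 of 11 *Myc* targets were called in WT CDAHFD. Over all genes tested 22.0% and 26.1% were higher, and 17.0% and 25.0% lower.

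Markers of macrophages, of stellate cells and fibroblasts, of cholangiocytes and of neutrophils moved with the same groups. The sums of endothelial markers and of T and NK cell markers overlapped between the groups. In bulk tissue, more cells of a type and more RNA per cell cannot be told apart. The marker counts below compare with 22.0% of all genes higher and 17.0% lower in KO chow, and 26.1% and 25.0% in WT CDAHFD. The 8 macrophage markers summed to between 339 and 612 CPM in WT chow, 1577 and 2104 CPM in WT CDAHFD, 1212 and 1225 CPM in KO chow, and 1543 and 1736 CPM in KO CDAHFD, with 7 of 8 higher in KO chow and 7 of 8 in WT CDAHFD. The 7 markers of stellate cells and fibroblasts summed to between 187 and 282, 1485 and 1588, 1222 and 1424, and 1624 and 2262 CPM in the same order, with 5 of 7 higher in both. The 5 cholangiocyte markers were between 7.27 and 20.8 CPM in WT chow and between 26.4 and 94.5 CPM in the other libraries, with 4 of 5 higher in KO chow and 5 of 5 in WT CDAHFD, and the 5 neutrophil markers were between 2.86 and 14.6 CPM and between 21.9 and 32.8 CPM, with 4 of 5 higher in both. The 7 hepatocyte markers, which the tissue label calls for, summed to between 112138 and 123572 CPM in WT chow, 66665 and 77813 CPM in WT CDAHFD, 99754 and 111427 CPM in KO chow, and 62632 and 79516 CPM in KO CDAHFD, with 4 of 7 lower in KO chow and 6 of 7 in WT CDAHFD. Endothelial markers were 1 of 7 higher in KO chow and 3 of 7 lower in WT CDAHFD, with sums from 203 to 370 CPM over all libraries, and T and NK cell markers, 3 of 6 higher and 1 of 6 lower in both, summed to between 5.32 and 8.73 CPM. No marker was at 0 throughout a group. The part of these cells in the levels of the 10 genes was not tested.

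Within groups, the library that was lowest was counted over the 10 genes. The same count over all genes was not made, so these counts cannot be read as a trait of the 10 genes. KO chow 2 was the lower KO chow library for 8 of 10 and KO CDAHFD 3 the lowest of its group for 8 of 10. WT chow 2 was the lowest of its group for 6 of the 9 genes with counts there. The libraries also differed in clock genes, which follow the time of day, and the time of collection is not given in the sources used here. A clock score, the mean centred log2 CPM of 3 genes high in the morning phase minus that of 7 genes high in the evening phase, was 2.68, 2.58, −3.63 and −3.89 in WT chow, 0.638, 1.54 and 1.70 in WT CDAHFD, 2.17 and −1.69 in KO chow, and 1.12, 1.03 and −4.25 in KO CDAHFD. KO chow 2 and KO CDAHFD 3 thus had the lowest score of their groups, while WT chow 2 had a high one. *Ppara* stood at 120 and 96.2 CPM in WT chow 1 and 2, and at 238 and 226 CPM in WT chow 3 and 4, which had the low scores. The part of the clock in its lower level in WT CDAHFD was not tested. With the score in the model 7 of the 9 genes were higher in KO chow, against 23.8% of all genes in that fit, all 9 were higher in WT CDAHFD, against 27.7%, and 6 had a negative interaction that passed, against 15.9%.

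For each gene the tested genes with the most similar pattern were found by the mean absolute difference of centred log2 CPM over the 12 libraries. For *Myc* these were *Aspm* (0.201), *Kif20a* (0.217) and *Spag5* (0.226). *Kif20a* averaged 0.901 CPM on chow and 16.6 CPM on CDAHFD in WT mice, and 18.2 and 11.2 CPM in KO mice. *Fos* was nearest to *Cd14* (0.293), which averaged 3.06, 42.7, 17.1 and 28.9 CPM in the same order. *Jun* was nearest to *Slc2a6* (0.149), *Metrnl* (0.185) and *Fermt3* (0.189), *Egr1* to *Mdm1* (0.164), and *Atf3* to *A530064D06Rik* (0.257) and *Ifi27l2b* (0.336). The points of such a comparison share their libraries and groups, and it is a description.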

How the data were processed

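Liver RNA of 12 libraries was analysed. The deposited values are raw read counts, 1 per Ensembl gene and library, which the authors did not normalize. According to the labels and the paper's methods, poly-A selected, non-directional libraries were checked with FastQC 0.11.5 and aligned to GRCm38 with STAR 2.7.3a, and DESeq2 was used for testing. The counting program and annotation release are not given in the sources used here. Groups and replicate numbers came from the sample titles; the methods name 3 mice per group where the labels give 4, 3, 2 and 3 libraries, the label of KO chow 2 carries the number 3, and the histology scores 3 KO chow and 2 KO CDAHFD mice. This was not resolved and bears on group membership and on the replicate block. Symbols came from GENCODE M21, which held 52081 of the 55357 identifiers (94.08%).

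Tests were run with edgeR 4.0.16 (with limma 3.58.1) and, as an alternative, DESeq2 1.42.0 under R 4.3.3. Tables and plots were made with pandas 2.3.3 and matplotlib 3.10.9 under Python 3.11.15. Genes were filtered with filterByExpr (17358 left), scaled with TMM (factors 0.729 to 1.26) and fitted with a mean for each of 4 groups (glmQLFit, glmQLFTest), as the KO chow group has only 2 libraries. The steps were tested on simulated data. Adjusted p under 0.05 was called. SE is the size of the log2 fold change divided by the square root of F. A count of 0 was bounded at 3 counts per library. No 2 libraries of the same group agreed within sampling noise. The alternatives were other scalings, no filter, DESeq2, only the 2 groups compared, a replicate block, a clock score and leaving out each library. Named genes were the 10 genes, *Ppara*, overlapping genes, up to 3 called genes of each pathway list with the largest change per comparison with WT chow and a mean of at least 50 counts, and the 3 most similar genes of each of the 10. *Ier2*, *Dusp1*, *Zfp36*, *Mmp3* and *Il6* fall outside this rule and were chosen after their values were seen. The 10 genes and the lists were chosen with earlier results of these data known.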

Additional observations from a re-analysis of the deposited data

Results flagged for a closer look

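Leaving *Fosl1* aside, the effect of CDAHFD on 6 of 9 genes differed between WT and KO mice by the test of the interaction (adjusted p under 0.05, quasi-likelihood test of edgeR), against 23.1% of all genes, 14.5% with a negative value. The interaction was −4.86 for *Atf3*, with log2 fold changes on the diet of 5.23 in WT and 0.37 in KO mice. It was −4.40 for *Myc*, with 3.83 and −0.57, and −3.63 for *Fos*, with 3.73 and 0.11. It was −2.24 for *Egr1*, with 2.05 and −0.19, −1.84 for *Jun*, with 2.34 and 0.49, and −1.38 for *Fosl2*, with 1.46 and 0.08. For *Fosl1* the fitted value was −7.31, which depends on the prior count since WT chow had 0 counts, and is no measure of size, and the gene passed the filter only through the groups in which it was counted. In KO mice 0 of the 10 genes were called on the diet by edgeR, against 6.19% of all genes, and DESeq2 called 0. For an unadjusted p under 0.05 it was 0 of the 10, against 4002 of all 17358 genes.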

How the results depend on the processing

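Over the alternatives, 181 of 198 log2 fold changes of the 10 genes in KO chow and 197 of 198 in WT CDAHFD, each against WT chow, and 180 of 189 interactions kept their direction and their side of the threshold. Each of these totals includes 18 values of *Fosl1*, of which 17, 18 and 18 were kept. They are no evidence of stability, since *Fosl1* had no read in WT chow. Leaving out each library gave 6 to 8 of the 10 genes called in KO chow, 9 or 10 in WT CDAHFD, and 6 to 8 with an interaction, *Fosl1* included. Over all genes 4320 to 7128, 7299 to 8984 and 2828 to 4630 were called in these fits, of 17121 to 18236 genes tested. Without WT CDAHFD 2, *Fosl1* did not pass the filter. For KO chow against WT CDAHFD, a fit with only those groups, over fewer libraries, called 2 of the 10 genes, against 0 with all groups. It called 1985 of the 16788 genes tested, against 1063 of 17358 with all groups. Signs turned for values that were not called. In KO CDAHFD against WT CDAHFD, *Jund* was at 0.0219 by library size only, 0.0374 with upper quartile scaling and 0.0623 with the clock score, and from −0.19 to 0.24 with libraries left out, and *Atf3* ran from −0.23 to 0.10. In KO CDAHFD against KO chow, *Egr1* was at 0.00806 by library size only, and with libraries left out *Fos* ran from −0.42 to 0.94, *Fosb* from −0.56 to 0.23, *Jund* from −0.25 to 0.41 and *Egr1* from −0.50 to 0.22. In KO chow against WT CDAHFD, *Fosl1* ran from −1.01 to 0.49, *Jund* from −0.42 to 0.23 and *Myc* from −0.20 to 0.0214. The cause was not tested. Scaling by library size only moved the median of all genes by 0.40 in KO chow and 0.51 in WT CDAHFD against WT chow, and relative to it no direction of the 10 genes turned in these comparisons.

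Deviations from group means in same-numbered libraries of different groups had r from −0.24 to 0.27 over 15 pairs, 3 over 0.1. Differently numbered libraries had r from −0.27 to 0.25 over 38 pairs, 7 over 0.1. The 2 KO chow libraries mirror each other by this measure, and the label of KO chow 2 carries the number 3. The check therefore cannot decide whether libraries were paired. With the replicate block 7, 10 and 8 of the 10 genes, *Fosl1* included, were called in KO chow, in WT CDAHFD and for the interaction. Over all 17358 genes 5433, 7797 and 3137 were called in that fit. With the block *Fosb* was at 0.0697 in KO CDAHFD against KO chow and at 2.55 in WT CDAHFD against WT chow. Counts over all genes depended more on the fit. The 62 genes of KO CDAHFD against WT CDAHFD became 240 with DESeq2, 215 without the filter, 154 with 2 groups and 165 with the clock score, and 26 to 75 with a library left out. The 1075 of KO CDAHFD against KO chow became 1886 with DESeq2, 581 with 2 groups, 640 with the block and 1684 with the clock score, and 233 to 1437 with a library left out, fewest without KO chow 1. The 1063 of KO chow against WT CDAHFD became 2042, 1985 with 2 groups and 2524 with the clock score, and 260 to 1469 with a library left out, and the 6763 of KO chow against WT chow became 4320 without KO chow 1. By library size only the share of calls that were higher went from 60.7% to 90.0% in KO CDAHFD against KO chow, from 44.2% to 19.1% in KO chow against WT CDAHFD and from 37.3% to 13.7% for the interaction. *Fosl1* had 61 counts in all and was barely detectable at this depth, and the cause of its low count was not tested.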
